A study of Mus musculus with 6 samples.

Results

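The open chromatin of 49 TGF-beta and BMP signalling genes was described in undifferentiated white preadipocytes. The genes comprised 16 ligands, 11 receptors, 8 SMADs, 6 antagonists, 4 Id targets and 4 latent binding proteins. A gene's locus was its body with 10 kb on each side (mm10, GENCODE M21), and every ATAC-seq summit in a locus was taken whatever its height. The loci held 735 of 179248 windows of equal width (0.41%), a window being a stretch centred on a summit that was listed in at least 2 libraries. All 49 genes had windows, between 3 and 65 each.

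To compare ATAC sensitivity with and without HMGN proteins, the study deposited peak lists of 3 WT and 3 DKO cultures. The DKO mice were Hmgn1-/- and Hmgn2-/- throughout the body, so that these cells lacked both proteins before they were isolated. Both genotypes were C57BL/6, and the preadipocytes were isolated from inguinal fat when the mice were 8 to 12 weeks old. The cells were grown in culture and collected at day 0, before any agent of the differentiation medium was given. Whether the 3 cultures of a genotype came from separate animals was not stated, so the p-values measure the spread between these cultures.

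Ligands of the TGF-beta family are secreted dimers that bring type I and type II serine/threonine kinase receptors together. TGF-beta and activin receptors phosphorylate SMAD2 and SMAD3, and BMP receptors phosphorylate SMAD1, SMAD5 and SMAD9. These join SMAD4, enter the nucleus and bind DNA, where SMAD6, SMAD7 and the Id genes are among the targets. In adipose progenitors TGF-beta and activin are known to hold back adipocyte differentiation, while BMP2, BMP4 and BMP7 favour commitment to white or brown adipocytes.

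The lists held 299433 to 299620 summits each, close to the 300000 at which they were limited, and the read totals behind the lists are unknown. DKO replicate 3 reached deepest into weak summits, with a lowest −log10 p of 3.54 against 5.63 in WT replicate 3. The Hmgn2 promoter window (chr4:133967752-133968252) had fold enrichments of 7.89, 7.53 and 9.45 in WT and no listed summit in DKO. The Hmgn1 promoter window was listed in all 6 libraries, at 12.6, 13.9 and 20.1 in WT and 14.9, 16.3 and 14.4 in DKO, so it does not tell the genotypes apart. Of 14 preadipocyte marker genes, 13 had a promoter window and 11 had it in all 6 libraries. Of 5 mature adipocyte markers, Adipoq, Plin1, Cidec and Lep had none, whereas Fabp4 was listed in all 6 libraries at 12.9 to 17.4. All 4 mesothelial and 3 of 4 Schwann cell markers also lacked a promoter window. Of 5 endothelial markers, Cdh5 was listed in the 3 DKO libraries only and Tie1 in 2 of them, while Pecam1 had 16.9, 12.2 and 17.2 in WT and 11.1, 11.8 and 10.3 in DKO. All 5 pericyte and smooth muscle markers had a promoter window, 4 of them in all 6 libraries, with medians of 8.92, 8.58 and 9.93 in WT and 7.45, 7.99 and 6.45 in DKO. Of 6 macrophage and leukocyte markers, Itgam was listed in the 3 DKO libraries only and Adgre1 in 2 of them, while Csf1r and Cd68 were listed in all 6 libraries, Spi1 in 1 of each genotype and Ptprc in none. None of these marker promoters passed the test. The median promoter value was 3.88, 5.69 and 8.22 in WT and 5.03, 7.09 and 6.14 in DKO for the endothelial list. For the macrophage and leukocyte list it was 1.56, 0 and 0 in WT and 3.93, 3.80 and 1.6 in DKO, with an unlisted promoter set to 0. The part of such cells in the results below was not tested.

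Some sequences are given before the values. The first group is shown because its windows hold the spaced pair of letters known from BMP-responsive enhancers, which was found in 5 of the 25 windows of the Id genes. Capitals mark GGCGCC followed after 5 bases by GNC, or GGCGNC followed after 5 bases by GTCT, on either strand. All sequences are the forward strand of mm10, written 5′ to 3′. The stretches lie at chr2:152735134-152735294 (1007 bp upstream of Id1), chr2:152729708-152729808 (6493 bp upstream of Id1), chr12:25098899-25099052 (1862 bp upstream of Id2) and chr4:136140524-136140624 (2923 bp upstream of Id3).
Id1, 1007 bp upstream: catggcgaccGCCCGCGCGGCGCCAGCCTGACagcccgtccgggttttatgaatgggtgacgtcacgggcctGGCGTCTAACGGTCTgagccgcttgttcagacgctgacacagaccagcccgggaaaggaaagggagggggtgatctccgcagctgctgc
Id1, 6493 bp upstream: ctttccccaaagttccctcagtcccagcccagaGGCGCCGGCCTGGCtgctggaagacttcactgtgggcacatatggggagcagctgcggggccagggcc
Id2, 1862 bp upstream: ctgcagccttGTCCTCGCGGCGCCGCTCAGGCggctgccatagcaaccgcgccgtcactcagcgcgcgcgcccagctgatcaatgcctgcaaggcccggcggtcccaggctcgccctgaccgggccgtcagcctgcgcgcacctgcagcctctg
Id3, 2923 bp upstream: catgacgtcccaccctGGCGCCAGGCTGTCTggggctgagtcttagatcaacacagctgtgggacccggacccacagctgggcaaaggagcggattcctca

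The second group is shown because these windows were among those with the smallest p between WT and DKO in receptors, ligands and latent binding proteins. The Acvr1 stretch lies in an intron (chr2:58497229-58497329) and its capitals mark the palindrome GTCTAGAC, which SMAD3 and SMAD4 bind. The Bmp5 (chr9:75815692-75815799) and Tgfbr3 (chr5:107253470-107253585) stretches are intronic too, and their capitals mark the AP-1 letters TGANTCA. The Tgfbr2 stretch (chr9:116147267-116147367, intron) and the Ltbp4 stretch (chr7:27302232-27302332, 2854 bp beyond the end of the gene) hold none of the searched motifs.
Acvr1, intron: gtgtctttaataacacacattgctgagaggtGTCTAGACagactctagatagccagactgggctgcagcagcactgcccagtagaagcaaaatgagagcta
Bmp5, intron: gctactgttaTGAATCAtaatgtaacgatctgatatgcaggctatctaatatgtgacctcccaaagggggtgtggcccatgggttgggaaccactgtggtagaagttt
Tgfbr3, intron: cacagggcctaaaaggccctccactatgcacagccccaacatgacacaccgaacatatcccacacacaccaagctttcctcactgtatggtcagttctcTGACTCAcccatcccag
Tgfbr2, intron: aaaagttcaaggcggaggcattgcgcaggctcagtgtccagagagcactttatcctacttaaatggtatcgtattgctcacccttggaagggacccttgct
Ltbp4, downstream: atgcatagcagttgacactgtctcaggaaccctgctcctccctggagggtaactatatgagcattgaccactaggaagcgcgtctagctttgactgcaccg

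Most windows of these genes (649 of 735) lay farther than 1 kb from a start of their gene, and 86 lay nearer. Over all windows, 24780 lay within 1 kb of a protein-coding start and 154468 did not. The annotation below is by position in the gene, and some promoter windows are annotated as intronic or upstream. Of the 735 windows, 504 (68.6%) were intronic, 105 lay upstream and 79 downstream of the gene, 34 were in a UTR and 13 in a coding exon. A total of 36 windows lay within 1 kb of the start of another gene and 61 inside another gene, so that these could not be assigned to the member alone. The strongest window was the promoter window in 8 of the 49 genes. The 735 windows had a median fold enrichment of 4.60, against 4.96 over all windows, and 417 of them (56.7%) were listed in all 6 libraries, against 58.0% of all windows.

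Ranking the summits of each list by −log10 p gave an order of the loci in each genotype, with Tgfb1 first in both. The best summit of the Tgfb1 locus ranked within the top 0.356%, 0.531% and 0.577% of the WT lists and 0.365%, 0.803% and 0.890% of the DKO lists. It belonged to a window 6237 bp upstream of Tgfb1 that is also the promoter region of B9d2, with fold enrichments of 23.8, 19.7 and 25.2 in WT and 22.8, 20.8 and 19.8 in DKO. After Tgfb1 came Ltbp2, Bmpr1a, Tgfbr2 and Acvr1b in WT, with median best ranks between 0.666% and 1.40%. At the other end, the weakest loci in WT were those of Bmp4, Bmp2, Bmp7 and Gdf6. The best summit of Bmp4, the BMP that commits progenitors to the adipocyte lineage, reached only a median rank of 64.4% in WT and 55.8% in DKO. The Bmp2 locus reached 45.8% and 56.5%, and that of Bmp7, a ligand of brown adipocyte differentiation, 40.5% and 42.4%. Of the receptors that these ligands use, Bmpr1a and Bmpr2 had stronger summits, with best ranks of 0.702% and 6.58% in WT. These were the best of 25 and 14 windows, against 3 windows for Bmp4, 4 for Bmp2 and 6 for Bmp7. The locus of Acvr2a, another type II receptor, reached only 31.6% in WT and 43.1% in DKO.

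**Figure D1:**
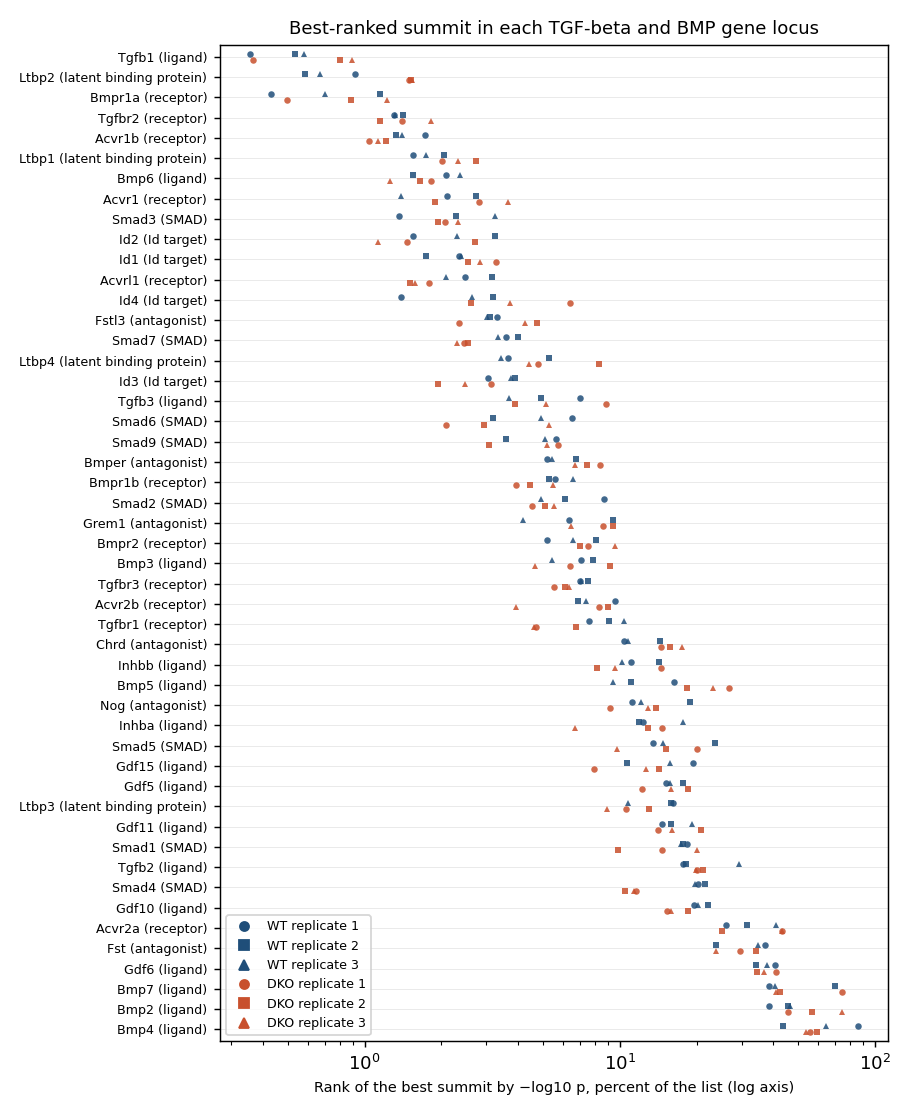
Rank of the best summit of each locus by −log10 p, as a percent of the library's list (log axis, smaller is stronger), for 49 genes ordered by their WT median; blue symbols are the 3 WT and orange symbols the 3 DKO libraries. The Tgfb1, Ltbp2 and Bmpr1a loci lie at the strong end and Bmp7, Bmp2 and Bmp4 at the weak end in both genotypes.

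None of the 735 windows passed the genome-wide test. The test was limma on quantile-normalized log2 fold enrichment over all 179248 windows (DKO minus WT), in which 0.0591% of windows were called, 0.0357% lower and 0.0234% higher in DKO. The smallest adjusted p among the windows was 0.0817 (Ltbp4), and 71 windows had an unadjusted p under 0.05, 27 of them lower and 44 higher in DKO. That is 9.66% of the windows, against 11.8% of all windows. The normalized WT and DKO values did not overlap in 123 windows, 45 lower in DKO (6.12%, against 7.67% of all windows) and 78 higher (10.6%, against 8.76%). A fit restricted to the 103985 windows listed in all 6 libraries called 0.875% of them, 0.59% lower and 0.285% higher. In that fit a Bmp5 and a Tgfbr2 window were lower and a Tgfbr3 window was higher in DKO. The Tgfbr2 and Tgfbr3 windows were singled out after these values were seen.

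**Figure D2:**
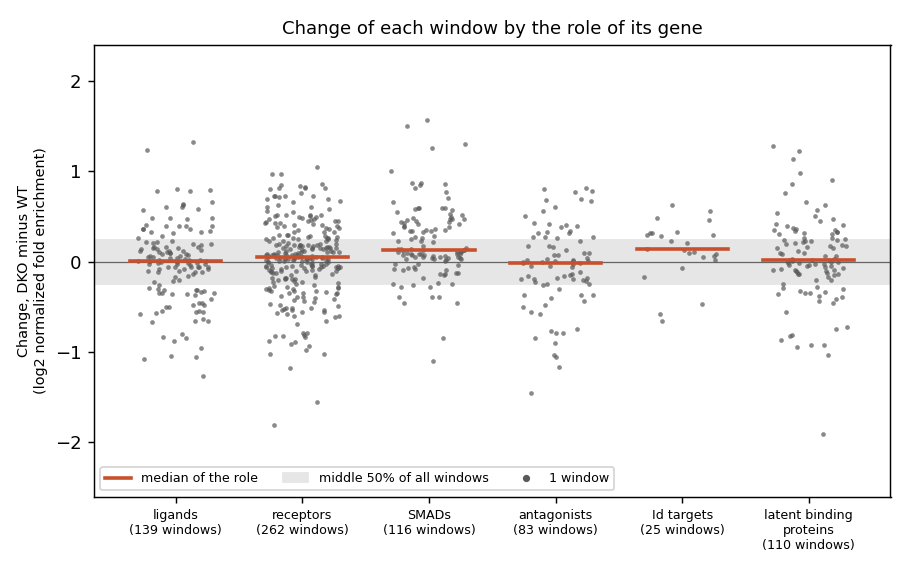
Change of each of the 735 windows (DKO minus WT, log2 normalized fold enrichment), grouped by the role of the gene; each point is a window, the orange bar is the median of the role and the grey band holds the middle 50% of all 179248 windows. The medians of the SMADs (0.13) and the Id targets (0.14) lie above those of the other roles, and single windows of every role lie outside the band.

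The medians of the roles lay close together and their differences were not tested. The median change was 0.13 for the 116 SMAD windows and 0.14 for the 25 Id windows, against 0.05 for receptors, 0.0025 for ligands, 0.01 for latent binding proteins, −0.02 for antagonists and 0.01 for all windows. Of the SMAD windows 88 had a positive and 28 a negative change, and the DKO values lay wholly above the WT values in 25 (21.6%, against 8.76% of all windows) and wholly below in 3 (against 7.67%). Of all windows 51.4% had a positive change. Without any scaling between libraries the median over all windows was −0.14. On that scale the SMAD median was −0.02 and the Id median −0.05, both negative but 0.12 and 0.09 above all windows. The SMAD loci held 198, 200 and 188 listed summits in WT and 217, 207 and 219 in DKO. The ligand loci held 228, 231 and 225 in WT and 208, 222 and 222 in DKO. The antagonist loci held 117, 126 and 115 in WT and 98, 108 and 108 in DKO. These groups of libraries did not overlap, but an exact two-sided permutation test of 3 against 3 cannot go below p = 0.10, which all 3 roles reached (0.20 adjusted over the 6 roles). Over all 49 loci the lists held 1203, 1226 and 1175 summits in WT and 1178, 1204 and 1183 in DKO (exact permutation p = 0.70).

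**Figure D3:**
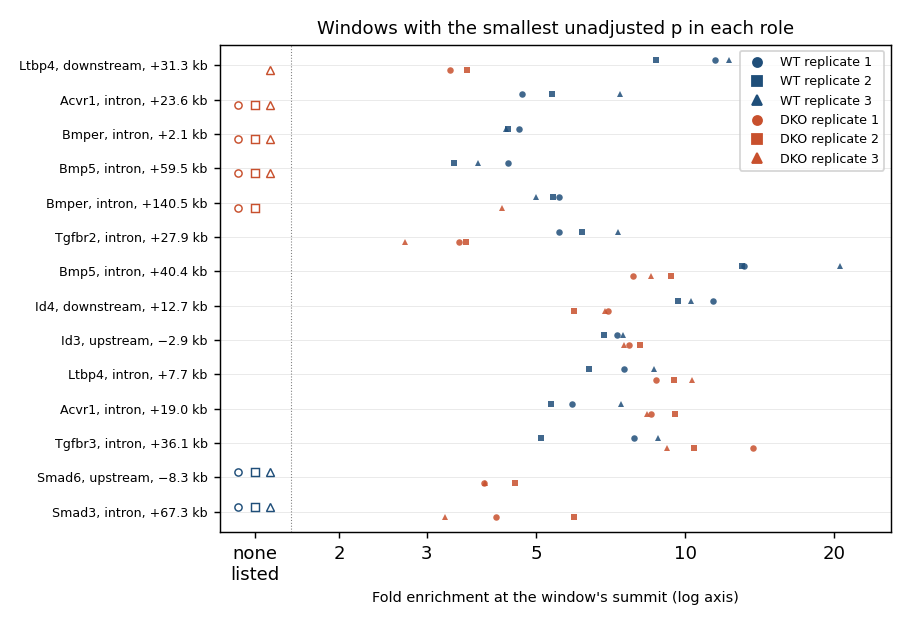
Fold enrichment in each library (log axis) of the windows with the smallest unadjusted p in each role and of the Tgfbr2 and Tgfbr3 windows called among windows listed in all 6 libraries; labels give the gene, the annotation and the distance to the nearest annotated start of the gene, and open symbols at the left mark libraries with no listed summit. The WT and DKO symbols lie apart in most rows and nearly touch at the Id3, Ltbp4 intron and Tgfbr3 windows.

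Among the ligands, Bmp5 had the clearest separation. Bmp5 encodes a BMP related to BMP6 and BMP7, and it had no promoter window. Its intronic window at chr9:75815499-75815999, 40385 bp into the gene, had fold enrichments of 13.1, 13.0 and 20.6 in WT and 7.83, 9.35 and 8.52 in DKO. All 3 DKO values lay below all WT values, with a change of −0.67 ± 0.14 (SE, n = 3 per genotype; limma adjusted p = 0.142, and 0.0274 among windows listed in all 6 libraries). A second Bmp5 intron window (chr9:75834656-75835156) was listed at 4.38, 3.42 and 3.82 in WT and in no DKO library. A window without a summit is one in which the list placed none and is not shown to be closed, so no fold change is given for such windows. In the means over a locus such a library was given the lowest fold enrichment of its list. Over its 10 windows the Bmp5 locus had a mean change of −0.52 ± 0.11 (SE; limma adjusted p = 0.0971), and over the 4 listed in all 6 libraries −0.34 ± 0.08 (limma adjusted p = 0.174).

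No other ligand window was called either. Inhba, which encodes the subunit of activin A, had an intron window (chr13:16023201-16023701) at 3.11, 3.12 and 4.05 in WT and in no DKO library. Its promoter window was listed at 7.14, 7.90 and 7.76 in WT and 7.71, 8.53 and 10.4 in DKO, and these values overlapped. The Gdf10 window at its start site (chr14:33923480-33923980, UTR) was listed in DKO only, at 2.92, 3.42 and 4.67. The 3 windows of Bmp4 all had a positive change, but none was listed in all 6 libraries, so that each included values set to the lowest of a list, and the locus mean was 0.62 ± 0.21 (SE; limma adjusted p = 0.230). The promoter window of Tgfb1, the main TGF-beta isoform, was among the weakest of its role at 2.65, 2.72 and 2.67 in WT and 2.90, 3.65 and 4.00 in DKO. Its DKO values lay above its WT values, with a change of 0.80 ± 0.38 (SE; limma adjusted p = 0.444) that was 0.44 among windows listed in all 6 libraries and 0.38 without scaling. On the normalized scale, DKO lay wholly above WT in 3 of the 13 ligand promoters and wholly below in 2, Gdf5 and Gdf6 (against 13.6% and 4.57% of all promoters). The Gdf5 promoter had 6.54, 5.40 and 6.53 in WT and 2.93, 5.04 and 3.42 in DKO (limma adjusted p = 0.431). The strongest ligand promoter was that of Tgfb3, at 9.22, 9.86 and 12.7 in WT and 8.997, 11.8 and 10.3 in DKO, which overlapped. The Bmp7 promoter overlapped too, at 3.50, 3.13 and 5.28 in WT and 3.91, 5.10 and 3.605 in DKO.

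The receptors had windows that separated in both directions, at times in the same gene, at shares near those of all windows. DKO values lay wholly below the WT values in 7.25% of receptor windows and wholly above in 8.4%. The shares of all windows were 7.67% and 8.76%. Acvr1 encodes ALK2, a type I receptor for BMPs and activin. Its intron window at chr2:58492407-58492907 was listed at 4.68, 5.39 and 7.39 in WT and in no DKO library. Less than 5 kb away, the window at chr2:58497029-58497529, which holds the palindrome shown above, had values of 5.92, 5.35 and 7.43 in WT and 8.53, 9.55 and 8.38 in DKO. Here the DKO values lay above the WT values, with a change of 0.70 ± 0.14 (SE; limma adjusted p = 0.140). The mean over the 30 windows of Acvr1 was −0.12 ± 0.10 (SE), with overlapping libraries. Over the 16 windows listed in all 6 libraries it was 0.10 ± 0.06 (SE), so that the direction turned.

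Tgfbr2 and Tgfbr3 each had a window that was called among those listed in all 6 libraries. Tgfbr2 encodes the type II receptor that binds TGF-beta, and Tgfbr3 encodes betaglycan, a co-receptor that presents TGF-beta2 and also binds inhibin. A Tgfbr2 intron window (chr9:116147067-116147567) had values of 5.55, 6.20 and 7.32 in WT and 3.49, 3.6 and 2.71 in DKO. The change was −0.79 ± 0.25 (SE; limma adjusted p = 0.216, and 0.0442 among windows listed in all 6 libraries). A Tgfbr3 intron window (chr5:107253270-107253770) had values of 7.88, 5.12 and 8.80 in WT and 13.7, 10.4 and 9.18 in DKO. The change was 0.81 ± 0.17 (SE; limma adjusted p = 0.143, and 0.0282 among windows listed in all 6 libraries). Of the 57 Tgfbr3 windows 41 had a positive change, and of the 30 Tgfbr2 windows 21, against 51.4% of all windows. The DKO values lay wholly below the WT values in 5 Tgfbr2 windows and wholly above in 1, and in Tgfbr3 in 1 and 8, against 7.67% and 8.76% of all windows. The locus means were 0.18 ± 0.10 (SE) for Tgfbr3 and 0.13 ± 0.10 for Tgfbr2, with limma adjusted p-values of 0.416 and 0.586, and in both the DKO libraries lay above the WT libraries on the normalized scale. Over windows listed in all 6 libraries the means were 0.13 for Tgfbr3 and −0.05 for Tgfbr2, so that the direction of Tgfbr2 turned.

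Receptor promoters were open in all 6 libraries for each of the 11 genes. That of Tgfbr1, the type I receptor ALK5, had values of 8.99, 9.10 and 10.4 in WT and 12.7, 10.9 and 12.2 in DKO, which did not overlap (0.50 ± 0.13 SE; limma adjusted p = 0.173). The Acvr1b promoter, of the activin receptor ALK4, had 6.43, 4.52 and 5.69 in WT and 6.50, 7.17 and 8.93 in DKO (0.63 ± 0.21 SE; limma adjusted p = 0.255). The Tgfbr2 promoter overlapped between genotypes, at 11.1, 11.1 and 10.5 in WT and 9.80, 11.3 and 9.85 in DKO. The same held for the BMP type II receptor Bmpr2, with 11.9, 8.88 and 11.6 in WT and 10.1, 10.7 and 7.70 in DKO. By the mean over all 6 libraries the strongest receptor promoter was that of Acvr2b. It had 9.82, 7.94 and 14.7 in WT and 11.1, 11.4 and 13.8 in DKO, and in WT alone Bmpr1b and Tgfbr2 had higher means. The weakest was that of Bmpr1a, the BMP type I receptor ALK3, at 3.12, 4.43 and 3.56 in WT and 4.38, 3.59 and 3.92 in DKO, although the locus held one of the best-ranked summits. A window of Bmpr1b, the type I receptor ALK6, in its intron (chr3:141981147-141981647) was listed at 3.80, 4.27 and 6.75 in WT and in no DKO library.

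All 8 SMAD genes had a promoter window in every library, and on the normalized scale all 8 had a positive change there, whereas without scaling those of Smad3 and Smad9 were among the negative ones (−0.06 and −0.11). Smad4 encodes the shared partner of both branches. Its promoter window (chr18:73703693-73704193) had values of 9.07, 7.45 and 11.1 in WT and 11.6, 11.9 and 10.1 in DKO. WT replicate 3 lay within the DKO range before normalization and below it after, and the change was 0.48 ± 0.12 (SE; limma adjusted p = 0.159, the smallest of the promoters). The limma adjusted p was 0.0275 with the 50000 summits of smallest p in each list. Without scaling the change was 0.30 (limma adjusted p = 0.497). The Smad7 promoter window, of the inhibitory SMAD that blocks TGF-beta receptors, had 6.53, 7.42 and 7.43 in WT and 8.88, 9.07 and 9.13 in DKO. Its centre lies 864 bp upstream of the Smad7 start and within 1 kb of the start of Gm20544. Every DKO value exceeded every WT value, with a change of 0.52 ± 0.16 (SE; limma adjusted p = 0.220). The Smad1 promoter, of the BMP branch, had 6.86, 5.75 and 9.32 in WT and 8.75, 11.0 and 6.88 in DKO (0.46 ± 0.17 SE; limma adjusted p = 0.307), overlapping before normalization and not after.

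The remaining SMAD promoters overlapped between genotypes. The Smad3 promoter had 10.03, 9.73 and 11.8 in WT and 9.84, 10.3 and 10.01 in DKO, and the Smad2 promoter, the strongest of the role, had 12.9, 13.5 and 17.5 in WT and 16.3, 14.3 and 13.1 in DKO. The changes were 0.13 for Smad5 and 0.085 for Smad6, with limma adjusted p-values of 0.786 and 0.886. The weakest was the Smad9 promoter, at 4.70, 3.93 and 5.31 in WT and 5.88, 4.48 and 2.97 in DKO.

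Away from the promoters, 4 of the 116 SMAD windows were listed in the 3 DKO libraries and in no WT library, against 1.14% of all windows. They lay in introns of Smad1 (chr8:79388811-79389311; 3.29, 3.45 and 3.94), Smad3 (chr9:63690475-63690975; 4.14, 5.95 and 3.28) and Smad7 (chr18:75391121-75391621; 2.26, 2.13 and 2.69) and 8328 bp upstream of Smad6 (chr9:64030137-64030637; 3.91, 4.54 and 3.93). A single SMAD window was listed in WT only (against 1.23% of all windows), in an intron of Smad4 (chr18:73647784-73648284; 3.31, 3.36 and 3.67). On the normalized scale, 15 of the 17 windows of Smad7 had a positive change and in 8 the DKO values lay wholly above the WT values, against 51.4% and 8.76% of all windows. The locus means were 0.32 ± 0.11 (SE) for Smad7, 0.27 ± 0.09 for Smad6 and 0.34 ± 0.14 for Smad1, with limma adjusted p-values of 0.242, 0.233 and 0.292. Over windows listed in all 6 libraries they were 0.24, 0.05 and 0.16. Over all windows their libraries did not overlap, whereas the Smad2 locus had a mean change of −0.25 ± 0.18 and overlapped.

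The antagonists bind ligands outside the cell, and their windows had a median change near 0. Bmper, which encodes a secreted modulator of BMPs, held 52 of their 83 windows. Its window 2087 bp into the gene (chr9:23224913-23225413) was listed at 4.62, 4.37 and 4.35 in WT and in no DKO library. A distal intron window (chr9:23363351-23363851) had 5.55, 5.41 and 4.99 in WT and was listed in DKO replicate 3 alone, at 4.26. The Bmper promoter had 7.82, 6.67 and 12.3 in WT and 8.002, 6.27 and 9.42 in DKO, which overlapped. It was the strongest promoter of the role by the mean over all 6 libraries, although the Fstl3 promoter had a higher mean in DKO. That of Fst, which encodes the activin-binding protein follistatin, was listed only in WT replicate 1 (2.62) and DKO replicate 2 (3.19). Nog, which encodes noggin, had no promoter window.

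The Id genes encode inhibitors of basic helix-loop-helix factors and are direct targets of BMP signalling. Their promoters were listed in all 6 libraries. The Id1 promoter had 8.19, 6.79 and 7.53 in WT and 6.62, 7.72 and 6.61 in DKO, and that of Id2 had 11.4, 8.99 and 10.6 in WT and 11.1, 9.34 and 11.3 in DKO. Both overlapped between genotypes. The Id3 promoter had 6.59, 6.23 and 6.48 in WT and 6.59, 7.49 and 7.04 in DKO, which overlapped as listed by the lowest DKO value only (0.31 ± 0.17 SE; limma adjusted p = 0.460). The Id3 promoter held the highest pileup of the 735 windows, between 168 and 291 cut sites.

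The upstream Id windows shown above had small changes. The window 1007 bp upstream of Id1 had 10.3, 10.4 and 10.6 in WT and 9.31, 9.84 and 9.32 in DKO, so that DKO lay below WT as listed, but the normalized values overlapped (0.05 ± 0.14 SE; limma adjusted p = 0.944). The window 6493 bp upstream had 9.30, 8.94 and 12.8 in WT and 9.41, 10.8 and 9.50 in DKO. The Id3 window had 7.27, 6.86 and 7.50 in WT and 7.71, 8.11 and 7.52 in DKO, a change of 0.29 ± 0.15 (SE; limma adjusted p = 0.458). The Id2 window was weak, listed between 2.14 and 3 in 5 libraries and not in WT replicate 1.

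Id4 had no called window, and its difference from the other Id genes was not tested. Its promoter was the strongest promoter of all 49 genes, at 22.6, 16.1 and 22.9 in WT and 14.5, 19.3 and 16.1 in DKO, and these values overlapped. A window 7951 bp beyond the end of Id4, which is also the start of A330048O09Rik (chr13:48273727-48274227), had 11.4, 9.68 and 10.3 in WT and 6.99, 5.95 and 6.88 in DKO. All DKO values lay below all WT values (−0.47 ± 0.17 SE; limma adjusted p = 0.290). The coding exon window (chr13:48261248-48261748) was listed in WT only, at 3.01, 2.54 and 3.13. The mean over its 2 windows listed in all 6 libraries was −0.32 ± 0.09 (SE; limma adjusted p = 0.224).

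The latent binding proteins anchor latent TGF-beta in the matrix, and Ltbp4 held the window with the smallest p of all members. That window, 2854 bp beyond the end of Ltbp4 (chr7:27302032-27302532), had 11.5, 8.72 and 12.2 in WT, 3.35 and 3.62 in DKO replicates 1 and 2 and no listed summit in DKO replicate 3. The WT pileups behind these values were 56, 37 and 54 cut sites, and both DKO pileups were 14. Every DKO value lay below every WT value (with DKO replicate 3 set to the lowest of its list, limma adjusted p = 0.0817). Over the alternatives the limma adjusted p ranged from 0.0192 with −log10 p and 0.0376 with median centring to 0.119 without scaling, 0.273 with a library left out and 0.339 with a replicate block. Within the gene, a Ltbp4 intron window (chr7:27325691-27326191) had 7.51, 6.39 and 8.65 in WT and 8.72, 9.51 and 10.3 in DKO, higher in each DKO library (0.53 ± 0.14 SE; limma adjusted p = 0.174). The Ltbp4 promoter had 2.75, 3.90 and 3.91 in WT and 4.15, 4.63 and 5.56 in DKO. It was the weakest promoter of the role by the mean over all 6 libraries, although that of Ltbp3 had a lower mean in DKO. The strongest was that of Ltbp1, at 17.4, 14.0 and 17.5 in WT and 18.9, 13.7 and 12.5 in DKO, which overlapped. An intron window of Ltbp1 (chr17:75275330-75275830; 2.99, 3.57 and 3.20) and one of Ltbp2 (chr12:84870305-84870805; 3.35, 4.54 and 2.95) were listed in the 3 DKO libraries and in no WT library.

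Counted over all roles, 7 windows were listed in WT only and 7 in DKO only, against 1.23% and 1.14% of all windows. With a library left out these numbers were 12 to 18 and 10 to 19. When a listed interval, in place of a summit, had to cover at least 50% of a window, they were 6 and 1. With the 50000 summits of smallest p in each list they were 2 and 6. Both counts were made anew over all 735 windows and held other windows than the 14 named here. In each of the 14, intervals covered less than 50% in at least 1 library of its own genotype. An interval of the other genotype reached into 2 of the 14 windows, those of Bmpr1b (2 DKO libraries) and Smad7 (1 WT library). It covered 62.7% of the Bmpr1b window in DKO replicate 2, against 38.3%, 26.5% and 85.6% in WT. In WT replicate 3 it covered 39.7% of the Smad7 window, against 41.1%, 38.7% and 59.3% in DKO. These 2 windows thus lacked a summit but not cover in the other genotype. The WT-only windows belonged to Bmp5, Inhba, Bmpr1b, Acvr1, Smad4, Bmper and Id4. The DKO-only windows belonged to Gdf10, Smad1, Smad3, Smad6, Smad7, Ltbp1 and Ltbp2. The highest fold enrichment among these 14 windows was 7.39 (Acvr1).

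A promoter window, within 1 kb of an annotated start, was found for 45 of 49 genes and in all 6 libraries for 40 (81.6%, against 59.7% of 21755 protein-coding genes). Bmp4, Bmp5, Gdf15 and Nog had none. The median fold enrichment was 7.25, against 11.5 for the promoters of all genes. The change was positive in 37 and negative in 8, with a median of 0.21 against 0.07 for all promoters, of which 64.5% had a positive change. The normalized DKO values lay wholly above the WT values in 11 of 45 (against 13.6% of all promoters) and wholly below in 2 (against 4.57%). At the threshold of 0.05 no promoter of the 45 was called (0.048% of all promoters were). The unadjusted p was under it in 9, against 12.1% of all promoters. Without scaling, 24 of the promoters had a positive and 21 a negative change, with a median of 0.04 against −0.08 for all promoters, of which 34.6% had a positive change. The median was 0.13 when promoters were limited to 500 bp from a start.

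**Figure D4:**
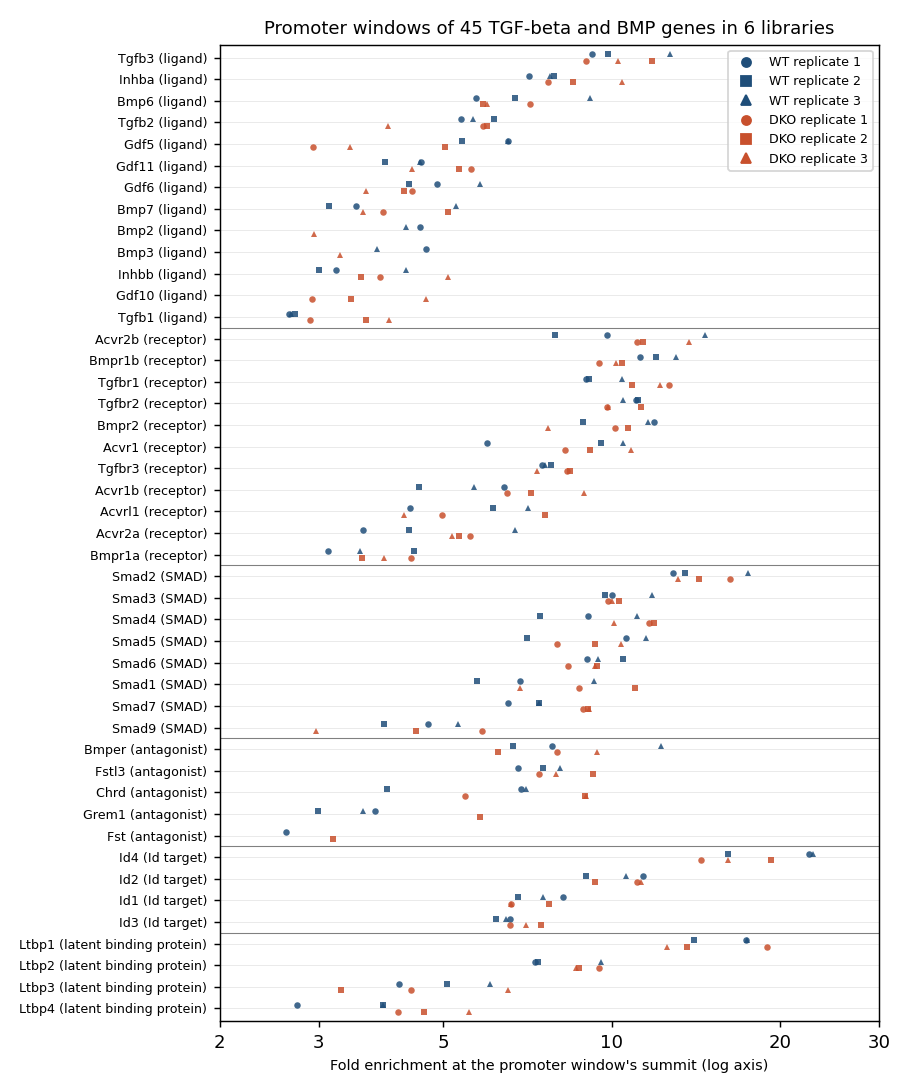
Fold enrichment at the promoter window (log axis) of the 45 genes that had one, in the 3 WT (blue) and 3 DKO (orange) libraries, grouped by role and ordered by mean within a role; a library with no listed summit has no symbol. The Id4, Ltbp1 and Smad2 promoters have the highest means and the Tgfb1 and Fst promoters the lowest.

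Locus means were compared across 18514 protein-coding loci, of which 0.448% were called. No locus of the 49 was. The unadjusted p fell below 0.05 in 7 (against 15.4% of all loci), and 14 had libraries that did not overlap (against 22.1%). The median was 0.04 over the 49 loci and 0.05 over all loci. On the normalized scale 7 of the 8 SMAD loci had a positive mean (6 of 8 over windows listed in all 6 libraries, without Smad2 and Smad5), and the lowest and the highest means were those of ligands, Bmp5 and Bmp4.

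**Figure D5:**
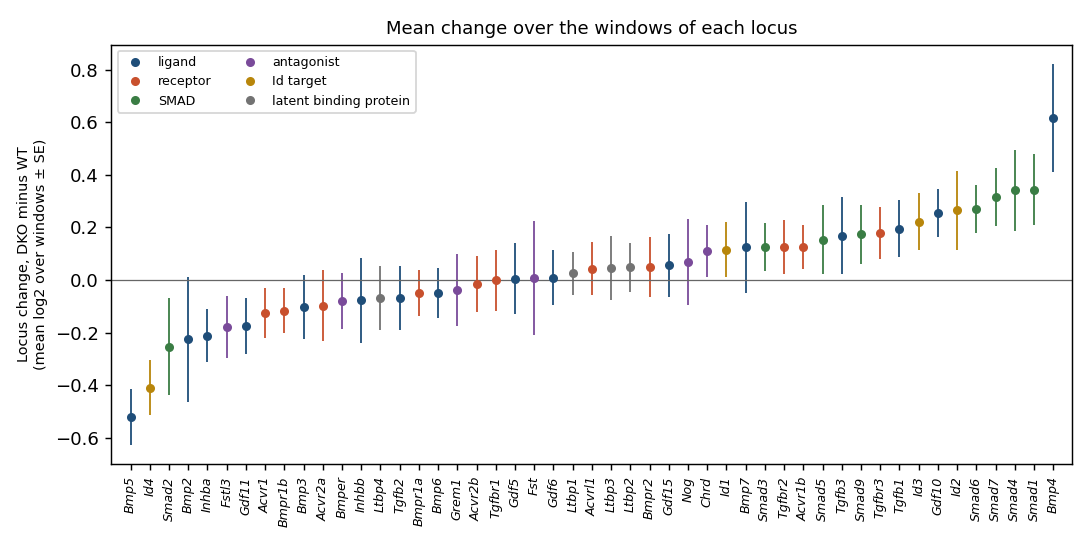
Mean change over the windows of each locus (DKO minus WT, log2 normalized fold enrichment) with its SE, ordered by size and coloured by role. Bmp5 (−0.52) and Id4 (−0.41) lie lowest and Bmp4 (0.62) highest, and Smad1, Smad4, Smad7 and Smad6 follow Bmp4, which has no window listed in all 6 libraries.

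Motif letters were counted in the central part of the windows, on both strands. GGCGCC with GNC after 5 bases was found in 8 of 735 windows (1.09%), against 0.511% of all windows and 2.36% of windows near protein-coding starts, and 5 of the 8 were Id windows. GGCGNC with GTCT after 5 bases, which can overlap it, was found in 4 windows (0.544%, against 0.0703%), upstream of Id1 and Id3 and in introns of Smad1 and Smad6. The palindrome GTCTAGAC was found in 7 windows (0.952%, against 0.273%), in introns of Bmpr1a, Bmpr1b, Acvr1, Fstl3 and Ltbp1 and at the starts of Smad6 and Smad7, the inhibitory SMADs. The AP-1 letters were found in 202 windows (27.5%, against 30%), in 33.6% of latent binding protein windows and in 1 of 25 Id windows. These are descriptions of the letters present and not of bound factors.

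Other genes of the pathways were counted in the same way. Of 60 further genes, which include ligands, receptor regulators, integrins and target genes, 40 had a promoter window and 34 had it in all 6 libraries. Their loci held 628 windows with a median change of 0.12, of which none was called in the fit over all windows (smallest limma adjusted p = 0.0778) and the unadjusted p was below 0.05 in 10.8%, against 11.8% of all windows. Their loci gave no call either, and at an unadjusted p under 0.05 there were 5 loci lower and 6 higher in DKO, against 15.4% of all loci. The smallest was Lefty2, an inhibitor of NODAL signalling, with a mean of 0.50 ± 0.09 (SE; limma adjusted p = 0.0607). Of their 40 promoters 7 had an unadjusted p under 0.05, against 12.1% of all promoters, those of Smurf2, Ski, Fbn1, Itgav and Pmepa1 with a positive and those of Smurf1 and Cer1 with a negative change. The promoter of Smurf2, a ubiquitin ligase that acts on SMADs and receptors, had 7.04, 5.26 and 8.603 in WT and 9.12, 8.95 and 10.8 in DKO (0.67 ± 0.16 SE; limma adjusted p = 0.160). The promoter of Ski, a repressor of SMAD-driven transcription, had 17.2, 15.1 and 19.8 in WT and 20.9, 19.3 and 22.7 in DKO, with WT replicate 3 within the DKO range (0.39 ± 0.10 SE; limma adjusted p = 0.170). The promoter of Smurf1, a ligase of the same family, had 6.89, 7.25 and 8.93 in WT and 2.93, 5.60 and 5.39 in DKO, all below WT. That of Cer1, a secreted antagonist of NODAL and BMPs, was listed in WT only, at 3.80, 3.13 and 4.11.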

How the data were processed

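Peak lists from ATAC-seq were analysed for day 0 preadipocyte cultures, 3 of them WT and 3 DKO. Per the study's methods, the labels and the names of the lists, the authors aligned reads to mm10 with Bowtie2 (2.3.4.3), removed duplicate and mitochondrial reads and ran MACS2 on every library by itself. The study gives default settings for MACS2, whereas the names of the lists give a p of 0.01 and a limit of 300000 peaks. The deposited fold enrichment is a ratio, in which the pileup of cut sites is divided by the background around it. The deposited significance is −log10 of a p-value and was used to rank the summits of a list. The pileup behind a summit was solved from these 2 values, which gave a whole number within 0.001 of the deposited −log10 p for 3583 of 3583 values.

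Windows of 501 bp were centred on the best-ranked summits without regard to genotype, and retained if 2 or more libraries listed a summit there at q below 0.01. The value of a window was its highest fold enrichment, and the lowest of the list where no summit was listed. Log2 values were quantile-normalized and compared with limma 3.58.1 (R 4.3.3; lmFit, eBayes with trend, two-sided, Benjamini-Hochberg over all windows, threshold 0.05). Promoter windows lay within 1 kb of a start in GENCODE M21, and locus means were fitted over 18514 protein-coding genes. Counts of summits were compared by exact permutation of the genotype labels. Sequences were read from the GRCm38 genome of RefSeq. On simulated data the window fit missed the smaller changes and most of the larger ones, so an uncalled window is not shown to be unchanged.

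The 49 genes, their roles, the motifs and the marker and pathway lists were chosen with earlier results of these data known. The text names windows called at 0.05, windows listed in all libraries of 1 genotype and none of the other, the 2 windows with the smallest p and the strongest and weakest promoter of each role, and a preset list of promoters (Tgfb1, Tgfbr1, Tgfbr2, Bmpr1a, Bmpr2, Smad3, Smad4, Smad7, Bmp4, Bmp7, Id1, Id2 and Id3). Other windows, promoters and pathway genes named with values were chosen after their values were seen. Alternatives changed the scaling, the windows, the variance trend, the measure, the list length, the flank, the promoter distance and the overlap, added the replicate number, or left out each library.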

Additional observations from a re-analysis of the deposited data

How the results depend on the processing

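Of 663 values recomputed for 55 results, 583 stayed in direction, on the same side of the threshold and within the set range. No window of these genes was called lower in DKO in the reported fit. The count was 1 with median centring (0.0876% of all windows), 2 among windows listed in all 6 libraries (0.59%), 6 without the variance trend (1.17%), 1 with −log10 p (0.0357%) and 1 with the 50000 summits of smallest p in each list (1.4%). The count called higher was 1 among windows listed in all 6 libraries (0.285%), 5 without the trend (1.14%) and 2 with the 50000 summits (0.754%). With the 50000 summits 1 promoter (Smad4) and 2 loci were also called, against 0.882% of all promoters and 1.56% of all loci. The calls without the trend were windows with no listed summit in 1 genotype, whose value there was set to the lowest of the list. Windows listed in WT only numbered 2 with the 50000 summits and 12 to 18 when a library was left out. Those listed in DKO only numbered 1 when an interval had to cover most of the window and 10 to 19 when a library was left out, since fewer libraries then had to match. The windows counted with the 50000 summits or by interval cover were not those named above as listed in 1 genotype.

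The median change of all the genes' windows was −0.089 without scaling, 0.0057 with −log10 p, 0.10 with the 50000 summits and 0.026 to 0.088 with a library left out. The promoter median was 0.036 without scaling, 0.35 with the 50000 summits, 0.13 within 500 bp of a start and 0.16 to 0.24 with a library left out. The SMAD median was −0.017 without scaling, 0.25 with the 50000 summits and 0.13 to 0.20 with a library left out. The Id median was −0.045, 0.35 and 0.073 to 0.22 in the same order, and 0.077 with −log10 p. The alternatives for the promoter, SMAD and Id medians were chosen after seeing the data. The difference in listed summits (DKO minus WT) turned from −13 to 15 with the 50000 summits (exact permutation p = 0.10). The cause of these shifts was not tested.

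Without scaling 21 of the 45 promoters had a negative change, against 8 in the reported fit. Of the promoters named by rule, the change reversed for Id1 (−0.10), Smad3 (−0.061), Smad9 (−0.11), Bmper (−0.14), Ltbp1 (−0.13), Tgfb3 (−0.028) and Tgfbr2 (−0.081). With −log10 p they reversed for Id1 (−0.081), Ltbp1 (−0.029) and Tgfb3 (−0.075). With a library left out, the range crossed 0 for Id1 (−0.025 to 0.16), Smad9 (−0.18 to 0.28), Bmper (−0.14 to 0.23), Fst (−0.11 to 0.44), Ltbp1 (−0.15 to 0.10), Bmpr2 (−0.057 to 0.092) and Tgfbr2 (−0.043 to 0.24).

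Same-numbered WT and DKO libraries did not deviate together (r = 0.0054, −0.012 and −0.0072), so the numbers were not taken as pairs, and a replicate block called 0 windows and 0 loci over the whole genome, these genes included. The lists give no read totals, and a window with no listed summit is not shown to be closed.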
